A study of Homo sapiens with 60 samples.

Results

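Osimertinib-treated METTL7A knockout (KO) PC9 cells and their untreated counterparts were compared at the chromatin sites bound by PDS5A. PC9 is a human lung adenocarcinoma line that depends on mutant EGFR, and osimertinib is an inhibitor of that kinase. METTL7A is a methyltransferase-like protein, and all 4 samples compared here lack it. The treated KO cells were kept under osimertinib for 6 to 8 weeks while the dose was raised from 100 nM, and the untreated KO cells received no drug. Binding was mapped by CUT&RUN, in which a nuclease tethered to an antibody releases the bound DNA for sequencing. Each of the treated and untreated groups had 2 replicate samples, and the deposited list of a group joins both. Whether replicates came from separate cultures, and whether the knockout is a single clone, is not given in the sources used here. Peak lists carry no measure of METTL7A, so the knockout itself could not be checked in them.

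The sites analysed were the peaks on chromosomes 1 to 22 whose global irreproducible discovery rate (IDR) was at most 0.05. The IDR measures how well the rank of a peak holds between the replicates, and a low value marks a peak that both replicates rank high. A peak can exceed the limit because the replicates differ or because it is weak in both. Of the 149865 such peaks in the 24 lists of the study, which also cover wild-type (WT) cells, KO cells that re-express tagged METTL7A (Rescue) and the antibodies RAD21, H3K27Ac and IgG, 4021 came from treated and 901 from untreated KO cells with the PDS5A antibody. The remaining deposited peaks, which brought the totals to 17960 in treated and 9065 in untreated KO cells, served as a wider set. A peak was kept if it overlapped a peak of the other list by 1 bp or more, gained if only the treated list had it, and lost if only the untreated list had it.

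PDS5A is an accessory subunit of cohesin, the ring-shaped complex that folds chromosomes into loops and holds sister chromatids together. It binds the ring near RAD21, the subunit that closes it, and works with WAPL to release cohesin from DNA, while also taking part in the acetylation that stabilises the ring. Cohesin is known to accumulate at CTCF sites and, more loosely, at active enhancers and promoters, which carry acetylated histone H3 lysine 27 (H3K27Ac). RAD21 and H3K27Ac lists from the same cells therefore describe the setting of each PDS5A peak, and IgG, an antibody with no chromatin target, gives the background.

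In the full lists, most PDS5A peaks of treated KO cells were not within the limit in untreated KO cells, whereas most untreated peaks persisted under the drug. The treated list held 3275 gained peaks, 81.4% of its 4021 (Wilson 95% interval 80.2 to 82.6%), and 746 kept peaks. The untreated list held 157 lost peaks, 17.4% of its 901 (15.1 to 20.0%), and 744 kept peaks. These shares are themselves the background over each whole list, and the lists differed 4.46-fold in length. Over every deposited peak the lists differed 1.98-fold, and 10579 treated peaks (58.9%) were gained and 1692 untreated peaks (18.7%) lost. With both lists shortened to their 901 strongest peaks by the lower replicate value, 58.0% of treated peaks were gained and 41.7% of untreated peaks kept, so at equal length most untreated peaks were not kept. Intervals cover counting error only, and with 1 list per group no test between treated and untreated cells was possible. Agreement between replicates moved with treatment: the −log10 p values of both replicates had a Spearman rho of 0.519 across the 17960 treated and 0.391 across the 9065 untreated peaks, and its part in the list lengths was not tested. Read totals are not in these lists, and depth is therefore unknown.

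**Figure D1:**
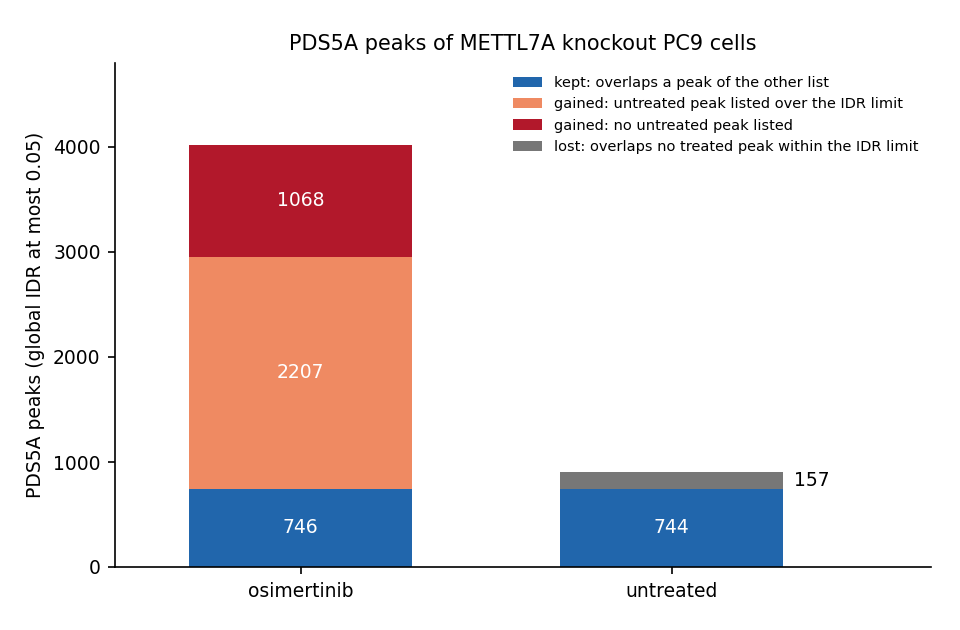
Stacked bars count the PDS5A peaks with a global IDR of at most 0.05 in osimertinib-treated (left) and untreated (right) METTL7A KO cells, divided by their status in the other list. The treated bar holds 746 kept peaks under 2207 and 1068 gained ones, and the untreated bar 744 kept and 157 lost peaks.

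The gained peaks fell into 2 kinds. For 2207 of them (67.4% of gained, 65.8 to 69.0%) the untreated list had a peak at the site that lay over the IDR limit. For the other 1068 (32.6%, 31.0 to 34.2%) it had no peak at the site at any IDR. At an IDR limit of 0.01 for both lists, the share of gained sites with no untreated peak at any IDR was 16.7%. The over-limit untreated peaks were mostly far from the limit, with a median global IDR of 0.285, and 308 of them (14.0%) had an IDR between 0.05 and 0.1. Of the 157 lost peaks, 141 had a listed treated peak over the limit and 16 had none.

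The replicate values of these over-limit peaks were set beside the lowest values among peaks within the limit. The IDR ranks both replicates jointly and sets no minimum in either column. The minima come from peaks within the limit, so peaks over it tend to lie below them. Each peak carries the authors' −log10 p for both replicates, here used only within a list. The lowest values among untreated peaks within the limit were 9.68 in the first and 19.6 in the second replicate column. Of the 2207 untreated peaks under a gained site that lay over the limit, 938 (42.5%) were below both minima and 733 (33.2%) in the first column alone. A further 353 were below in the second alone, and 183 (8.29%) were below neither minimum. Lost sites leaned to the first column. Of their 141 treated partners, 109 (77.3%) fell below the minimum of the treated list in the first column alone, which was 10.2. In the second alone, where it was 15.3, 22 (15.6%) did, and 6 (4.26%) were below neither minimum. The median values of those 141 partners were 7.83 in the first and 29.2 in the second replicate column. Most lost peaks therefore had a treated partner that was not below the minimum of 15.3 in the second replicate column. The partners' median there was near the 28.1 of all treated peaks within the limit and below the 49.0 of kept peaks. Which replicate sample stands in which column is not given in the sources used here.

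Kept peaks sat at the same place in both lists. In 745 pairs of kept peaks the summits lay a median of 32 bp apart (quartiles 14 and 72 bp), and 79.5% lay within 100 bp. The treated peak was the wider one in 512 pairs (68.7%), with a median width ratio of 1.12.

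Kept sites were on the whole the stronger PDS5A sites of treated KO cells. The median −log10 p of gained peaks was 16.5 in the first and 25.2 in the second replicate column, against 22.1 and 49.0 for kept peaks. The second column thus separated the classes more than the first, and it exceeded the first in 87.0% of gained and 96.1% of kept peaks. Ranked by the lower of both values, treated peaks were divided into 4 bins of equal size, and the share of gained peaks was 90.0% in the weakest bin, then 91.8%, 83.3% and 60.7% in the strongest. By the second column alone it was 98.1% in the weakest bin and 49.2% in the strongest. Gained sites with no listed untreated peak were narrower, with a median width of 1002 bp, than gained sites with one (1199 bp) and kept sites (1159 bp). These classes are set by overlap, which a wider peak meets more easily, and the part of this in the widths was not tested. In untreated KO cells lost and kept peaks had the same median of 15.2 for the lower value, and medians of 30.4 for lost and 37.0 for kept peaks in the second column. Untreated peaks were lost in 18.1%, 20.0%, 20.0% and 11.6% of peaks from the weakest bin to the strongest.

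**Figure D2:**
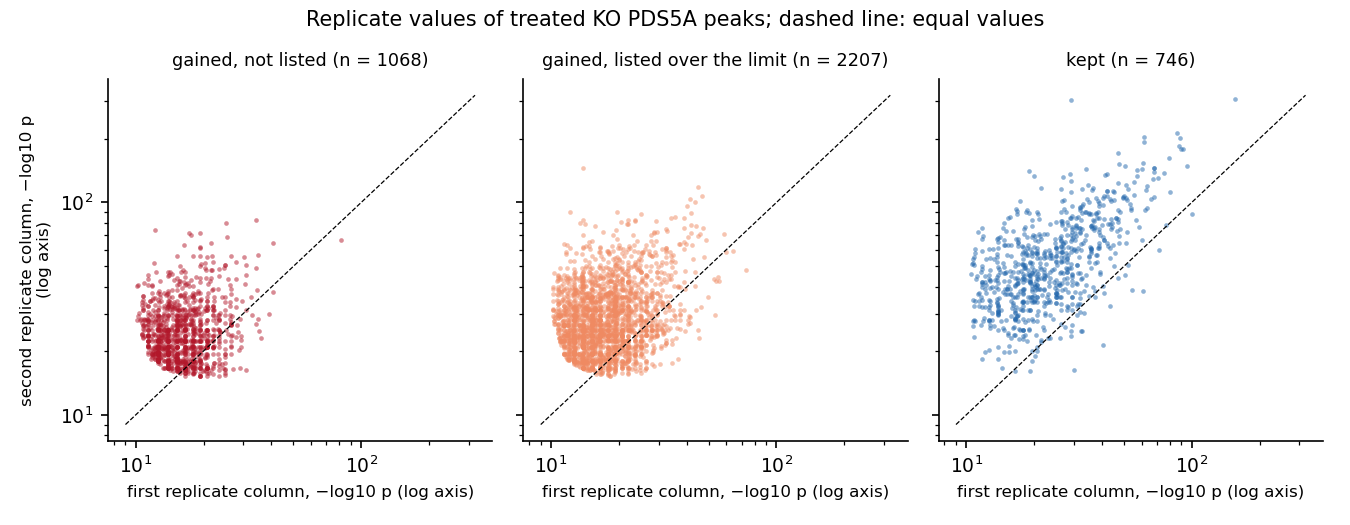
Each point is a treated KO PDS5A peak, placed by the −log10 p of its first (x) and second (y) replicate column, both on log axes, for gained peaks without an untreated peak, gained peaks with one over the limit, and kept peaks. Kept peaks reach higher on the y axis, where their median is 49.0 against 23.5 and 26.7 for the gained panels.

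The strongest peaks of each class, chosen by the lower replicate value, show these patterns at single sites (GRCh37 coordinates). The strongest kept site, chr16:50839881-50841219, had −log10 p values of 156 and 308 in treated and 72.7 and 269 in untreated KO cells. It carried RAD21 in both treatments and had no listed H3K27Ac or IgG peak. The next, chr8:86132256-86133229, had 95.1 and 149 in treated and 22.2 and 157 in untreated KO cells, and carried RAD21 in both and H3K27Ac within the limit in treated cells. All 5 strongest kept sites had RAD21 within the limit in treated cells, and 2 had H3K27Ac.

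Among gained sites with no listed untreated peak, the strongest was chr1:156186238-156186619, with 81.2 and 66.2, but it also had IgG peaks within the limit in treated and untreated KO cells. The following 4 were weaker and wider. The site chr19:45942668-45943929 had values of 40.4 and 64.6, with RAD21 in both treatments and no IgG peak. The site chr8:142085212-142086608 had 34.8 and 56.6, with RAD21 in both and H3K27Ac in treated KO cells, and chr7:142255385-142256178 had 34.5 and 38.8 with RAD21; neither had an IgG peak. All 5, with chr19:49956188-49957234, were present in the 4 PDS5A lists of WT and Rescue cells, treated and untreated. At these 5 sites the untreated KO list alone among the 6 PDS5A lists had no peak, and absence from that list is what defines the class. The 5 were not typical of it: of all 1068 such sites, 114 (10.7%) were within the limit in all 4 WT and Rescue lists.

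The 5 strongest gained sites with an untreated peak over the limit all had a deposited IgG peak in treated KO cells. In this they were not typical of their class, in which 628 of 2207 sites (28.5%) had one. The site chr7:55432509-55434695 had 64.1 and 59.2 in treated and 6.17 and 35.2 in untreated KO cells. At chr12:7125180-7126455 the values were 58.5 and 70.8 in treated and 4.05 and 41.6 in untreated KO cells. The untreated value was below the minimum of its list in the first column alone at both sites, and also at chr19:50650790-50652010 and chr19:54692873-54696030. At chr7:56173163-56174598, with 6.72 and 18.7 in untreated KO cells, it was below in both columns.

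Lost sites with a treated peak over the limit mirrored this. The strongest, chr2:222436188-222439090, had 4.63 and 95.9 in treated and 48.6 and 106 in untreated KO cells. The third, chr20:4201528-4202351, had 4.08 and 156 in treated and 40.9 and 86.7 in untreated KO cells, so its second value was higher under the drug. All 5 of these sites carried RAD21 within the limit in both treatments. Of all 141 such sites, 51.8% carried it in treated and 66.0% in untreated KO cells. Of the 16 lost sites with no listed treated peak, 1 carried it in treated and 3 in untreated KO cells. The 5 strongest of these 16 had no RAD21 within the limit in either KO list. They were also weaker, with lower replicate values of 16.5 to 25.1 against 34.1 to 48.6 in the 5 sites above. The strongest of the 16, chr11:36500295-36500857, had 25.1 and 38.7 in untreated KO cells, no RAD21, H3K27Ac or IgG peak, and a PDS5A peak in all 4 lists of WT and Rescue cells.

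Gained and kept sites differed in their overlap with RAD21 and H3K27Ac peaks within the IDR limit. RAD21 peaks of treated KO cells overlapped 56.5% of gained and 71.7% of kept PDS5A peaks, a difference of −15.3 points (Newcombe 95% interval −18.8 to −11.5). H3K27Ac peaks of treated KO cells overlapped 45.8% of gained and 29.0% of kept PDS5A peaks, a difference of 16.8 points (13.1 to 20.4). The H3K27Ac share was alike in gained sites without (45.9%) and with (45.8%) a listed untreated peak, whereas the RAD21 share was 44.9% without and 62.0% with one. Any deposited RAD21 peak of treated KO cells overlapped 94.5% of gained and 96.1% of kept sites, a difference of −1.61 points (−3.04 to 0.186). Both of these shares were close to the maximum, which leaves little room for a difference. Over every deposited PDS5A peak, deposited RAD21 peaks of treated KO cells overlapped 66.3% of gained and 87.3% of kept peaks. At PDS5A peaks within the limit, any deposited H3K27Ac peak of treated KO cells overlapped 73.9% of gained and 58.3% of kept sites. IgG moved with the same classes: any deposited IgG peak of treated KO cells overlapped 26.4% of gained and 16.9% of kept sites, although IgG peaks within the limit overlapped 0.458% of gained and 0.268% of kept sites. Over every deposited PDS5A peak the order turned round, with IgG at 9.63% of gained and 17.4% of kept peaks, a difference of −7.75 points (−8.79 to −6.72). The deposited IgG list was itself longer in treated KO cells, with 2668 treated and 164 untreated peaks, of which 32 treated and 6 untreated were within the limit. With sites on deposited IgG peaks left out, the differences were −16.7 points for RAD21 and 15.3 points for H3K27Ac. With PDS5A lists of 901 peaks each they were −4.73 points (−9.64 to 0.38) for RAD21 and 22.1 points for H3K27Ac.

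**Figure D3:**
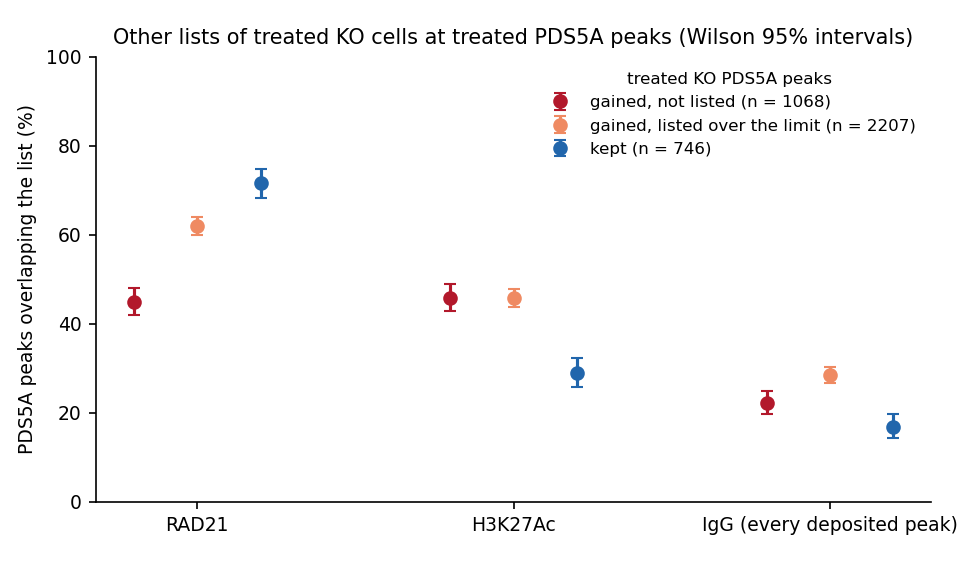
Points give the share of treated KO PDS5A peaks that overlap a peak of treated KO cells, by class, with Wilson 95% intervals. RAD21 and H3K27Ac peaks are those within the IDR limit, and IgG peaks are all deposited ones. H3K27Ac lies at 45.9% and 45.8% in both gained classes and at 29.0% in kept peaks, and RAD21 at 44.9%, 62.0% and 71.7%.

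Taking both marks at once, the classes differed at sites that carried a single mark. A mark was counted here only if its peak was within the IDR limit. Sites described as without RAD21 could therefore hold a deposited RAD21 peak over the limit, and 94.5% of all gained sites overlapped a deposited RAD21 peak of treated KO cells. Sites with H3K27Ac and no RAD21 made up 498 gained peaks (15.2%) and 20 kept peaks (2.68%), and 20.1% of the gained peaks with no listed untreated peak. Sites with RAD21 and no H3K27Ac made up 25.9% of gained and 45.4% of kept peaks. Sites with both made up 30.6% of gained and 26.3% of kept peaks, and sites with neither 28.3% of gained and 25.6% of kept peaks. Read the other way, 96.1% (498 of 518) of treated PDS5A peaks with H3K27Ac alone were gained, 83.6% (1002 of 1198) of those with both marks, 82.9% (928 of 1119) of those with neither and 71.4% (847 of 1186) of those with RAD21 alone, against 81.4% overall. Untreated peaks with H3K27Ac and no RAD21 were scarce: 3 of the 157 lost and 8 of the 744 kept peaks in untreated KO cells.

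The H3K27Ac difference was also seen among peaks of like strength when these were ranked by the lower replicate value, and the RAD21 difference was smaller there. Within the 4 strength bins, the H3K27Ac share of gained minus kept peaks was 20.1, 30.4, 28.0 and 20.3 points from the weakest to the strongest. For RAD21 it was 2.28, −2.20, −7.04 and −6.87 points, and only the strongest bin had an interval below 0 (−11.6 to −1.93). Ranked by the second replicate column instead, the H3K27Ac difference fell to 4.42 points in the strongest bin (−1.28 to 10.1), where gained and kept peaks had shares of 32.8% and 28.4%. The share of peaks on a deposited IgG peak was 14.0% in the weakest and 37.2% in the strongest bin by the lower value. Over every deposited peak, without the IDR limit, H3K27Ac overlapped 68.1% of gained and 65.0% of kept PDS5A peaks, a difference of 3.06 points (1.66 to 4.47), and RAD21 66.3% of gained and 87.3% of kept peaks, a difference of −21.0 points (−22.2 to −19.8).

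**Figure D4:**
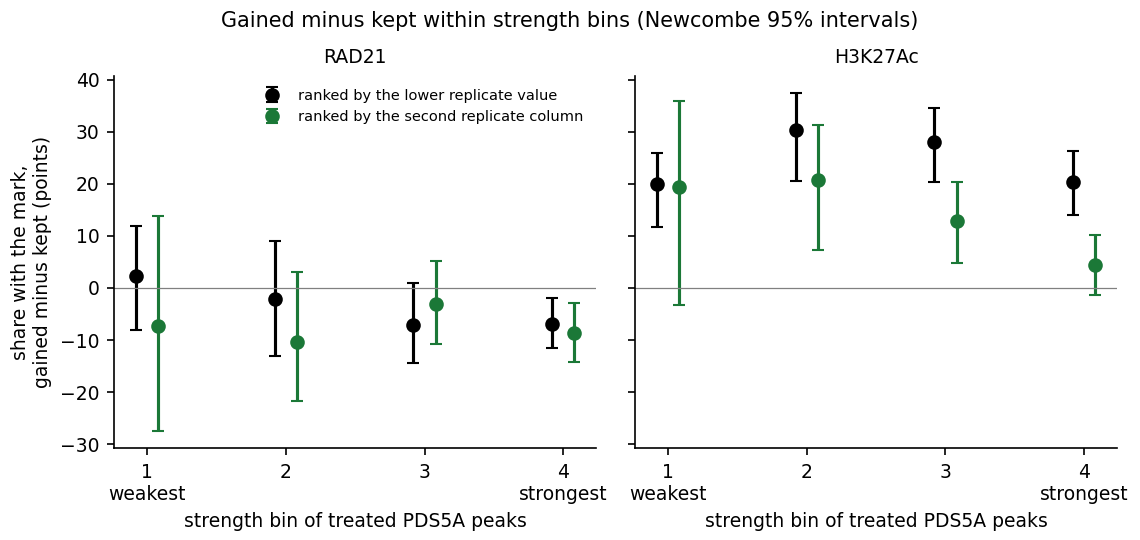
Points give the share of gained minus the share of kept PDS5A peaks that carry RAD21 (left) or H3K27Ac (right), in percentage points, within 4 strength bins of treated KO peaks, with Newcombe 95% intervals. Ranked by the lower replicate value the H3K27Ac difference stays between 20.1 and 30.4 points, and ranked by the second replicate column it is 4.42 points in the strongest bin.

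RAD21 summits lay nearer the PDS5A summit than H3K27Ac summits did. The median distance from the PDS5A summit to the RAD21 summit was 62 bp in 1849 gained and 46 bp in 535 kept peaks. To the H3K27Ac summit it was 139 bp in 1500 gained and 178 bp in 216 kept peaks. Only overlapping peaks were measured, and treated H3K27Ac peaks were wider (median 1615 bp) than treated RAD21 peaks (1089 bp). The part of peak width in these distances was not tested.

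The same sites already carried the marks in untreated KO cells to a large extent. RAD21 of untreated KO cells overlapped 54.4% of gained and 77.3% of kept PDS5A sites, and H3K27Ac of untreated KO cells 35.7% of gained and 21.3% of kept sites. Within the IDR limit, RAD21 was present in both treatments at 1354 gained sites (41.3%) and in treated cells alone at 495 (15.1%). It was present in untreated cells alone at 428 (13.1%) and in neither at 998 (30.5%). Any deposited RAD21 peak of untreated KO cells overlapped 91.8% of gained and 96.2% of kept sites. RAD21 and PDS5A peaks thus did not appear together at most gained sites. H3K27Ac within the limit was present in both treatments at 937 gained sites (28.6%) and in treated cells alone at 563 (17.2%). It was present in untreated cells alone at 233 (7.11%) and in neither at 1542 (47.1%). Of kept sites, 6.03% had RAD21 and 12.7% had H3K27Ac in treated cells alone. In the same KO cells the RAD21 list was shorter under the drug, with 4293 treated and 5283 untreated peaks, and the H3K27Ac list longer, with 8383 treated and 5420 untreated peaks. Over those whole lists, 30.4% of treated RAD21 and 54.9% of treated H3K27Ac peaks were gained, and 43.4% of untreated RAD21 and 29.9% of untreated H3K27Ac peaks were lost.

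Most sites gained in KO cells were also PDS5A sites in cells with METTL7A. The PDS5A list of treated WT cells held 80.6% of gained (79.3 to 82.0%) and 87.4% of kept KO sites, and that of treated Rescue cells 86.6% of gained (85.4 to 87.7%) and 88.6% of kept sites. Untreated WT cells separated the classes within the IDR limit: their list held 24.2% of gained and 75.7% of kept KO sites. Untreated Rescue cells did not, with 89.2% of gained and 91.7% of kept sites. These lists differ in length, with 12323 treated and 1731 untreated WT peaks and 11243 treated and 13746 untreated Rescue peaks, and longer lists hold more sites. Without the limit the separation was small in untreated WT cells. Any deposited PDS5A peak of these cells overlapped 92.1% of gained and 97.3% of kept KO sites. Between treatments, 88% of treated WT and 21.5% of treated Rescue peaks were gained, and 14% of untreated WT and 35.7% of untreated Rescue peaks were lost.

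Taken by pattern, 1950 gained KO sites (59.5%) were present in the treated and not the untreated WT list, 691 (21.1%) in both, 103 (3.15%) in the untreated alone and 531 (16.2%) in neither. In Rescue cells 2575 gained KO sites (78.6%) were in both lists and 262 (8.0%) in the treated list alone. Only 32 of the 3275 gained sites lay in none of the 4 WT and Rescue PDS5A lists within the limit, and each of them had a deposited peak over the limit in at least 1 of those lists. Of the 32, 16 had no listed untreated KO peak, 11 carried RAD21, 16 carried H3K27Ac and 10 lay on a deposited IgG peak.

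**Figure D5:**
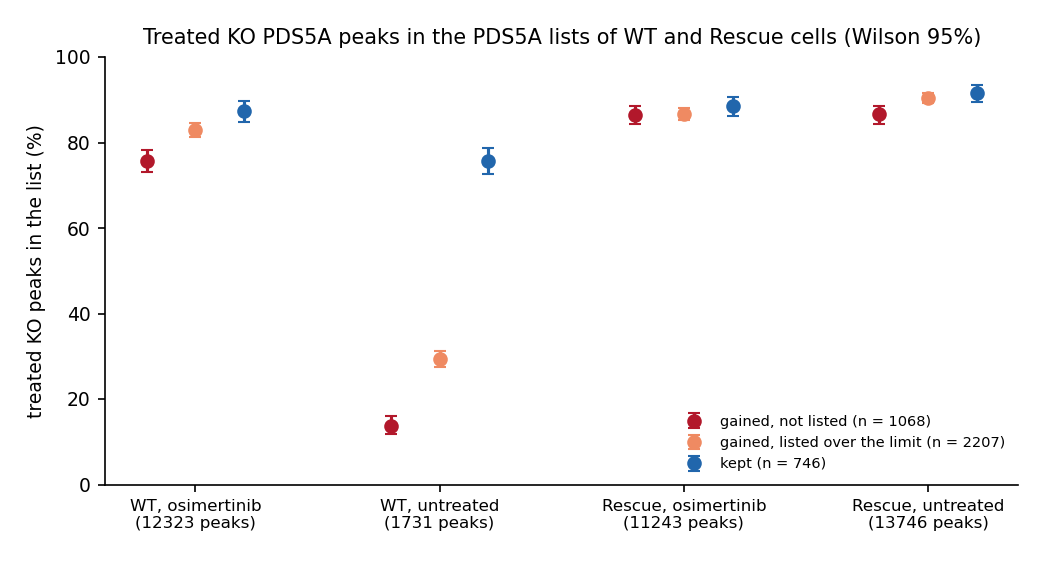
Points give the share of treated KO PDS5A peaks that were also present in each PDS5A list of WT and Rescue cells, by class, with Wilson 95% intervals and the list length under each axis label. All lists are limited to peaks within the IDR limit. The classes lie apart in untreated WT cells, at 13.8%, 29.3% and 75.7%, and close together in both Rescue lists.

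At the same KO sites, H3K27Ac and RAD21 were also read from cells with METTL7A. H3K27Ac lists of treated WT cells overlapped 40.2% of gained and 24.4% of kept KO sites, and those of treated Rescue cells 53.5% of gained and 36.6% of kept KO sites. Without drug the H3K27Ac shares were 29.3% of gained and 18.5% of kept KO sites in WT cells, and 55.7% and 37.9% in Rescue cells. RAD21 of treated WT cells overlapped 83.4% of gained and 85.8% of kept KO sites, and that of treated Rescue cells 79.9% of gained and 85.7% of kept KO sites. Without drug, RAD21 overlapped 45.0% of gained and 68.4% of kept KO sites in WT cells, and 74.2% of gained and 87.7% of kept KO sites in Rescue cells. The surplus of H3K27Ac at sites gained by KO cells was therefore present in all 6 H3K27Ac lists. WT and Rescue cells were themselves compared between treatments with the same rule. The PDS5A peaks gained by treated WT cells carried H3K27Ac less often (28.3%) than those kept (34.8%), whereas in Rescue cells 43.7% of gained and 37.0% of kept peaks carried it. The differences between genotypes were not tested.

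Gained sites were spread over the genome. They occupied 1255 windows of 1 Mb and kept sites 513, and the 5 fullest windows held 2.11% of all gained sites. Windows at 53 to 54 Mb of chromosome 12, 24 to 25 Mb of chromosome 14, 67 to 68 Mb of chromosome 16 and 7 to 8 Mb of chromosome 17 held 14 gained sites each. They held 5, 2, 2 and 1 kept sites in the same order, and 4 more windows held 13 gained sites. The windows were picked by their gained count. In all, these 4 held 19, 16, 16 and 15 treated PDS5A peaks, beside a gained share of 81.4% over the whole treated list. Of gained sites without a listed untreated peak 8.33%, and of those with one 11.6%, lay within 50 kb of a kept site. The 5 largest differences in a chromosome's share of peaks were for chromosome 1 (10.8% of treated and 12.8% of untreated peaks), 11, 19, 17 and 4. They were −1.97, −1.51, 1.37, 0.97 and 0.84 points, and all 5 intervals included 0. These intervals cover counting error only and treat the lists as independent, although 744 of the 901 untreated peaks were kept. They therefore do not decide whether the shares differ between treatments.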

How the data were processed

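Reads were processed by the submitters. Their processing notes name Trimmomatic, FastQC, bedtools 2.30, deepTools 3.5.1, MACS2 2.2.7.1, SAMtools 1.16 and Bowtie2 2.4.2, and the build GRCh37; order, settings, peak calling control and IDR version are not given in the sources used here. The list of a group joins its 2 replicates. For every peak the authors deposited −log10 p per replicate (never under 3) and a −log10 global IDR. No reads were counted here.

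Peaks on chromosomes 1 to 22 with a global IDR of at most 0.05 were compared by overlap of 1 bp, with Wilson and Newcombe 95% intervals. Python 3.11.15 was used with matplotlib 3.10.9, scipy 1.17.1, pandas 2.3.3 and numpy 2.4.6. The code was tested on simulated lists. Named sites were the 5 strongest of each class by the lower replicate value, and the fullest 1 Mb windows. Class members, comparisons and rules were chosen with earlier results of these data known. The counts by replicate column, the strength bins by a single column, the untreated mark lists, the marks at PDS5A lists of equal length and the shortened WT and Rescue lists were chosen after values were seen. No GRCh37 genome or annotation was used here, so genes and sequences at peaks were not analysed.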

Additional observations from a re-analysis of the deposited data

Results flagged for a closer look

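In WT cells the H3K27Ac share of gained minus kept PDS5A peaks was −6.48 points, with the opposite sign to the 16.8 points in KO cells. The lists were compared by the same rule, and the difference between genotypes was not tested. With the WT lists shortened to the lengths of the KO lists it was −9.60 points. In the full lists, any deposited IgG peak of treated cells overlapped gained less often than kept PDS5A peaks in WT cells (28.2% and 44.1%). It overlapped them more often in KO cells (26.4% and 16.9%). The shortened WT lists gave IgG shares of 26.1% and 43.9%. The part of IgG in the difference was not tested.

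The number of PDS5A peaks in treated over untreated Rescue cells gave a ratio of 0.818 (11243 treated and 13746 untreated peaks), below 1, against 4.46 in KO cells (4021 treated and 901 untreated peaks). Each ratio rests on 1 list per group, and the difference was not tested.

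Chromosome X, outside the main set, held 68 PDS5A peaks within the IDR limit in treated and 10 in untreated KO cells, above the 1 IgG peak in each. Of the 68, 59 were gained, beside a gained share of 81.4% on chromosomes 1 to 22, and 9 were kept. Of the 59 gained peaks 32 carried RAD21 and 28 H3K27Ac, beside 56.5% and 45.8% of gained peaks on chromosomes 1 to 22.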

How the results depend on the processing

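Under the settings run, 1 main value changed sign: the RAD21 difference was 2.28 points in the weakest bin by the lower replicate value and by the first column. Over every deposited peak the ratio of list lengths was 1.98, the gained share 58.9%, the RAD21 difference −21.0 and the H3K27Ac difference 3.06 points. Of the 3275 gained sites within the IDR limit, 98.9% overlapped any deposited peak of treated WT and 99.6% any of treated Rescue cells. At an IDR of 0.01, 79.8% were gained and 16.7% of gained sites had no untreated peak. Without sites on IgG peaks, these were 79.7% and 34.5%, and treated WT held 82.1% of gained sites. With both PDS5A lists cut to 901 peaks, 41.7% of untreated peaks were kept, a minority where the full lists had a majority, 58.0% of treated peaks gained, and the differences were −4.73 (RAD21, −9.64 to 0.380) and 22.1 points (H3K27Ac). Strength bins 2 to 4 gave, for RAD21, −2.20, −7.04 and −6.87 by the lower value and −4.33, −10.2 and −7.70 by the first column; by the second, bins 1 to 4 gave −7.24, −10.4, −3.02 and −8.56. For H3K27Ac, bins 2 and 3 gave 30.4 and 28.0 by the lower value; bins 2 to 4 gave 30.7, 23.8 and 23.5 by the first column and 20.6, 12.9 and 4.42 by the second. The RAD21 difference was −22.9 points with the untreated RAD21 list. The 5 fullest windows held 6.02% of gained sites at 5 Mb and 1.63% over every deposited peak. The cause of these moves was not tested.

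Added chromosome X, 50% overlap, the borders of either replicate and covered length moved none of the values computed for them beyond their limits. No paired analysis was possible because each list joins both replicates and no result comes from a test; no replicate was left out for the same reason. With depth unknown, absence from a list is no measure of absent binding. Marks at PDS5A lists of equal length, shortened WT and Rescue lists, single-column bins and untreated mark lists were chosen after seeing the data.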
